A study of Mus musculus with 14 samples.

Results

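Chemokines are small secreted proteins that guide migrating cells, and 10 chemokine genes, Cxcl13, Cxcl12, Cxcl14, Cxcl1, Cxcl10, Cxcl16, Cx3cl1, Ccl2, Ccl5 and Ccl7, were followed in 14 single glomerular mesangial cells. They are 10 of the 35271 genes in the deposited expression table, and all 10 were found in it by symbol. The set was chosen by the RPKM values of Cxcl13 in these same cells, high in a few and 0 in most, so its on-and-off pattern is described here without a test. All cells are wild type and came from the glomeruli of 1 male mouse of 8 weeks. The sample labels spell the strain C56BL/6 and the series design text C57BL/6. Bead-purified glomeruli were digested to a cell suspension, from which a Fluidigm C1, a microfluidic device, captured and lysed cells one by one. The cells form 1 group without treatment, and with 1 mouse there is no biological replicate and no test between groups. Cells are called by their titles, GL_M_ and a number.

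A chemokine binds a G protein-coupled receptor on a responding cell and sets its direction of movement. Homeostatic chemokines place lymphocytes and stem cells in tissue, whereas inflammatory ones are induced by cytokines and draw in neutrophils, monocytes and T cells. Mesangial cells, the contractile support cells between glomerular capillaries, are known to release inflammatory chemokines in glomerulonephritis. The family names follow the first cysteines of the mature protein, which are adjacent in CC ligands, 1 residue apart in CXC ligands and 3 residues apart in CX3C ligands. The coding sequences around these cysteines are shown for the ligands described most below and for Ccl2 as the CC example, from GENCODE M21 transcripts on GRCm38, 5′ to 3′, with the cysteine codons in capitals.
Cxcl13: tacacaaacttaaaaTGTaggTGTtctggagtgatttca
Cxcl12: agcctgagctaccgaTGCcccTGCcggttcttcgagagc
Cxcl16: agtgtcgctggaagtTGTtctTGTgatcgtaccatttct
Cxcl9: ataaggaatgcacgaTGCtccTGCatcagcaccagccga
Ccl2: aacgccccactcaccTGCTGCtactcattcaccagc
Cx3cl1: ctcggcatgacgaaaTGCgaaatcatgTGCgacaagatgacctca
The Cxcl13 stretch lies at chr5:95958649-95958687 on the plus strand and codes for cysteines 32 and 34 of 109 residues. The Cx3cl1 stretch, at chr8:94778036-94778080 on the plus strand, has cysteines 32 and 36 of 395 residues. The others are at chr6:117171493-117171531 plus (Cxcl12), chr11:70459112-70459150 minus (Cxcl16), chr5:92326827-92326865 minus (Cxcl9) and chr11:82036491-82036526 plus (Ccl2).

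Levels are given as RPKM, the reads of a gene scaled to its length in kilobases and to the reads of the cell. Read totals recovered from the steps of the values ran from 6.60 to 23.8 megareads (M) per cell, and 1770 to 5277 genes were detected, which here means an RPKM of at least 1. Of 9 mesangial markers 8 were detected in some cell, beside 29.2% of all genes. Gata3, Serpine2 and Ptn were above 10 in all 14 cells, while Tbx18 was at 0 in all. GL_M_30 also carried 9 of 11 endothelial markers at 10 or more, and GL_M_55 had 5 of 8 podocyte markers, both above the other cells. Low values were shared between particular cells. Among 1027 genes with an RPKM of 100 or more in a single cell and under 10 elsewhere, 17 of 91 cell pairs had at least 40% of these genes above 0 in both directions. The pairs joined GL_M_6, GL_M_11 and GL_M_29 to one another, GL_M_36 to GL_M_47, GL_M_51, GL_M_55, GL_M_60 and GL_M_65 to one another, GL_M_75, GL_M_85, GL_M_91 and GL_M_94 to one another, and GL_M_60 to GL_M_91.

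**Figure D1:**
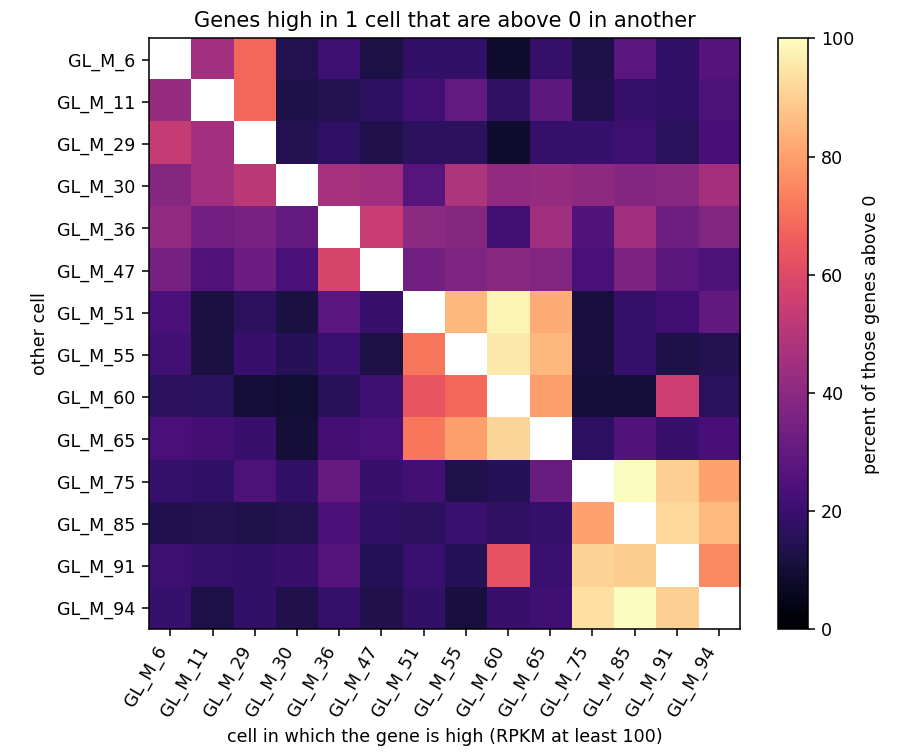
Percent of the genes that were high (RPKM at least 100) in the cell on the horizontal axis alone and were above 0 in the cell on the vertical axis, for 14 cells. Bright blocks are cells that share low values, such as GL_M_6, GL_M_11 and GL_M_29, and the 17 pairs named in the text are those at 40% or more both ways.

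Of the 10 chemokines 4 were detected in some cell, Cxcl13, Cxcl16, Cx3cl1 and Cxcl12, and the same 4 reached an RPKM of 10. Over all 35271 genes 29.2% were detected in some cell and 22.3% reached 10. Cxcl13 and Cxcl16 were the strongest, with highest values of 3687 and 254, and Cx3cl1 and Cxcl12 peaked at 45.1 and 14.4. Of the other 6, Cxcl14 and Ccl2 appeared once each below 0.1, and Cxcl1, Cxcl10, Ccl5 and Ccl7 were listed at 0 in every cell. Of all genes 57.1% were at 0 in all 14 cells.

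**Figure D2:**
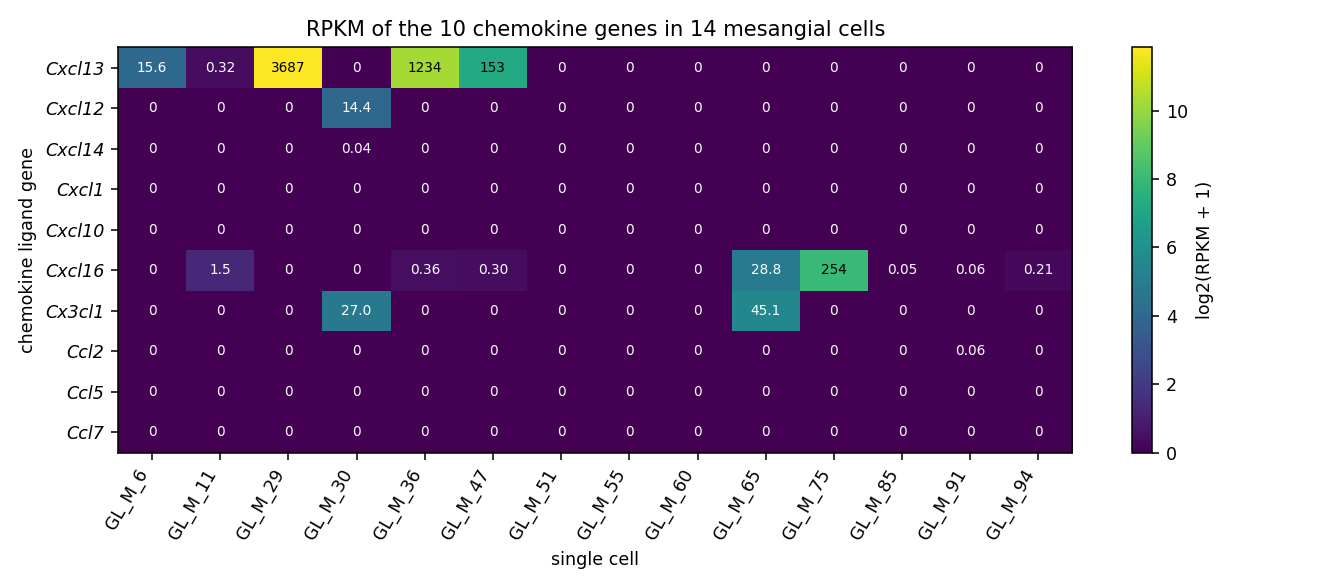
RPKM of the 10 chemokine genes (rows) in each of the 14 cells (columns), printed in each field and coloured by log2(RPKM + 1). Cxcl13 is above 0 in 5 cells and Cxcl16 in 8, while 4 of the genes are at 0 throughout.

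Cxcl13, also known as B lymphocyte chemoattractant, is made by stromal and follicular dendritic cells of lymphoid tissue and attracts B cells through the receptor Cxcr5. Its RPKM was 3687 in GL_M_29, 1234 in GL_M_36, 153 in GL_M_47 and 15.6 in GL_M_6, and 0.318 in GL_M_11. In the other 9 cells it was listed at 0. It was therefore detected in 4 of 14 cells, 28.6% with an exact 95% Clopper-Pearson interval of 8.39% to 58.1%. The interval covers the sampling of cells from this mouse alone and does not allow for the choice of Cxcl13 by these same values. The 3 high cells differed from each other as well, GL_M_29 lying 2.99-fold above GL_M_36 and GL_M_36 8.09-fold above GL_M_47. The step from GL_M_47 to GL_M_6 was 9.75-fold.

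In its highest cell Cxcl13 was among the most abundant transcripts. It held rank 10 of 35271 genes by RPKM in GL_M_29, rank 38 in GL_M_36 and rank 973 in GL_M_47, but rank 1694 in GL_M_6. GENCODE M21 gives the gene a length of 1150 bases, but its 3 lowest values above 0 fitted whole reads best at 1172 bases. That fitted length gives 39944 reads in GL_M_29, 19393 in GL_M_36, 2238 in GL_M_47, 148 in GL_M_6 and 3 in GL_M_11. A listed 0 allows up to 3 reads, an RPKM of 0.107 in GL_M_60, the most deeply sequenced cell, to 0.388 in GL_M_75, the shallowest. This limit covers counting error only, and a transcript lost before amplification would also be listed at 0. The gene (ENSMUSG00000023078) spans chr5:95956951-95961068 on the plus strand, is protein-coding with 4 exons, and shares 0% of its 50-base stretches with transcripts of other annotated genes.

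The on-and-off pattern was counted over the table as a background to the choice of Cxcl13. Values of 100 or higher in at least 3 cells together with 0 in at least 9 were found for 10 genes, 0.0284% of a table in which most genes were at 0 throughout. Cxcl13 is 1 of them and was chosen for this pattern, so nothing is read from the share. Of the 819 genes that reached 1000 in some cell, 61, or 7.45%, were at 0 in 9 or more. The cells with high Cxcl13 were of ordinary depth, with read totals of 9.24 M in GL_M_29, 13.4 M in GL_M_36 and 12.5 M in GL_M_47. GL_M_36 and GL_M_47 had the most detected genes of the 14, 5277 and 4842, whereas GL_M_29 had 2524.

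All 5 cells with any Cxcl13 belonged to 2 of the sets that share low values, GL_M_6, GL_M_11 and GL_M_29 in one and GL_M_36 and GL_M_47 in the other. In GL_M_6 Cxcl13 stood at 0.424% of its level in GL_M_29. Of 66 genes high in GL_M_29 alone, 45 were above 0 in GL_M_6, at a median of 0.0387% and a 95th percentile of 0.884% of the GL_M_29 level, and 4 of the 45 were at or above the Cxcl13 share. In GL_M_11 Cxcl13 stood at 0.00864%, and 44 of 45 genes were at or above that share. GL_M_36 had 33.5% of the GL_M_29 level, and GL_M_47 had 12.4% of the level in GL_M_36. The genes high in 1 cell alone had to be below 10 in every other cell, so their shares could not reach 10%, and no comparison with them is made for these values. As percents, the values in GL_M_6 and GL_M_11 lay within the range of the shared low values. In GL_M_6, however, Cxcl13 had an RPKM of 15.6, above the limit of 10 set for those genes. Its place among them in GL_M_6 is therefore given without a reading. The part of such sharing in the value of GL_M_6 was not tested.

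**Figure D3:**
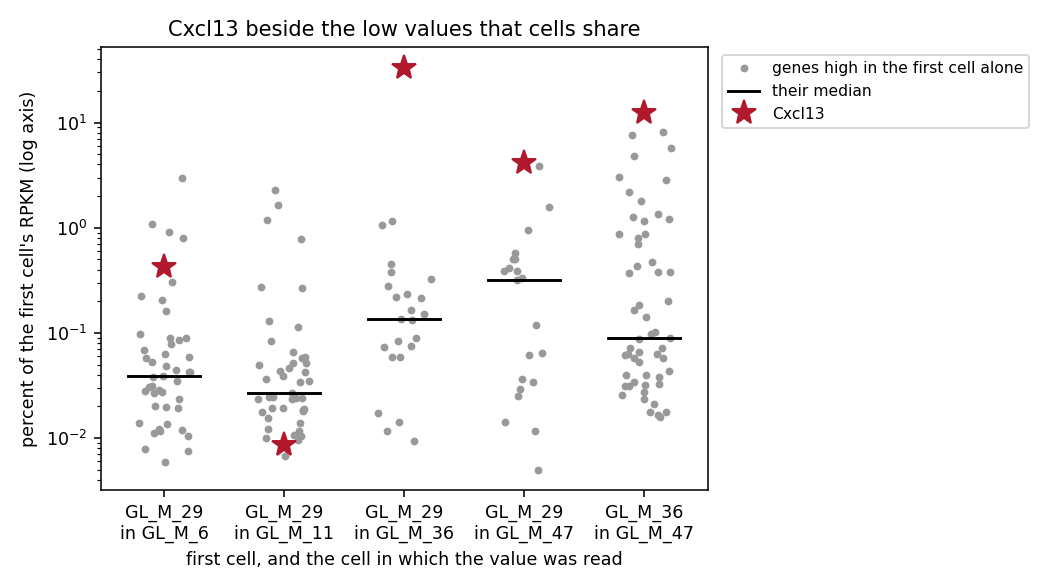
Level in a second cell as a percent of the first cell's RPKM (log axis), for genes high in the first cell alone and above 0 in the second (grey points, bar at the median) and for Cxcl13 (star). Cxcl13 lies among the points in GL_M_6 (0.424%) and GL_M_11 (0.00864%), but its RPKM in GL_M_6, 15.6, is above the limit set for the grey genes. The grey genes were chosen to be below an RPKM of 10 in the second cell, so their points lie below 10% by that choice and cannot be set against Cxcl13 in GL_M_36 and GL_M_47.

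The cells with Cxcl13 carried mesangial markers. In GL_M_29 the mesangial list summed to an RPKM of 8988, in GL_M_36 to 13512 and in GL_M_47 to 10458. Over all 14 cells, with these among them, the sum ran from 6981 to 23018. Most of it in GL_M_29 was Gata3 at 3588 and Serpine2 at 3877. Ptn was at 43.8 in GL_M_29, its lowest value of the 14 cells, against a median of 646. The 15 macrophage and dendritic cell markers summed to 0.0730 in GL_M_29, 0 in GL_M_36 and 0.0270 in GL_M_47, and the 9 lymphocyte markers to 0.641, 0.427 and 0.956. GL_M_6 had the highest lymphocyte sum of the 14 cells, 7.55, mostly Cd3d at 5.62 and Ms4a1 at 1.93, with a macrophage and dendritic cell sum of 0.209. GL_M_11 had the highest sum of the 4 neutrophil markers, 1.63. The part of these transcripts in the Cxcl13 values was not tested. Of 10 lymphoid stroma and follicular dendritic cell markers, 1, the milk fat globule protein Mfge8, was at 10 or more in GL_M_36 and GL_M_47, at 367 and 768. It was at 0.314 in GL_M_29, and 11 of the 14 cells had it at 10 or more. Cr2, the complement receptor of follicular dendritic cells, was at 0 in all 5 cells with Cxcl13 and reached 91.6 in GL_M_85. Of 11 endothelial markers 4 were at 10 or more in each of GL_M_29, GL_M_36 and GL_M_47, and of 8 podocyte markers 1, 2 and 2. In these 3 cells the endothelial list summed to 1351, 759 and 2075, against a median of 886 over the 14 cells. The podocyte list summed to 448, 84.2 and 295 (median 82.2) and the fibroblast list to 0.0987, 35.7 and 107 (median 16.8). The part of these transcripts in the Cxcl13 values was not tested either.

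Cxcl12, the homeostatic ligand of Cxcr4, was listed at 0 in 13 cells and was at 14.4 in GL_M_30, about 619 reads. That cell carried the 9 endothelial markers named above, and endothelial cells are a known source of Cxcl12. It also had 8331 genes above 0, near the upper end of 5048 to 8577 for the 14 cells. The part of endothelial transcripts in this value was not tested. Cxcl14, a homeostatic CXC ligand of epithelia and stroma, was at 0.0431 in GL_M_30, about 1 read, and at 0 elsewhere. Cxcl12 (ENSMUSG00000061353) spans chr6:117168535-117181367 plus and Cxcl14 (ENSMUSG00000021508) chr13:56288643-56296551 minus.

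Cxcl16 and Cx3cl1 are made as membrane-anchored proteins whose chemokine domain sits on a mucin-like stalk, and metalloproteases release them. Cxcl16, the ligand of Cxcr6 and a scavenger receptor for oxidised lipoprotein, was at 254 in GL_M_75, 28.8 in GL_M_65 and 1.53 in GL_M_11, and at 0.0520 to 0.358 in 5 further cells. Its median was 0.0561 and it was listed at 0 in 6 cells. These values are 3141, 465 and 23 reads in the 3 detected cells and 1 to 9 reads in the 5 others. Macrophages, a known source of Cxcl16, were represented in GL_M_75 by a marker sum of 6.54, nearly all Fcer1g, and by 0 in GL_M_65. Fcer1g was at 923 in GL_M_85, which shares low values with GL_M_75 and had Cxcl16 at 0.0520. The part of macrophage transcripts in the Cxcl16 values was not tested. GL_M_65 lay 8.83-fold below GL_M_75, and the 2 cells belong to different sets of shared low values. In GL_M_85, GL_M_94 and GL_M_91, which share low values with GL_M_75, Cxcl16 was at 0.0205%, 0.0821% and 0.0237% of the GL_M_75 level. The medians for genes high in GL_M_75 alone were 0.0436%, 0.152% and 0.0324%. Cxcl16 (ENSMUSG00000018920) spans chr11:70453983-70459984 on the minus strand, and 18.3% of its exon bases overlap Zmynd15 on the other strand, so reads there cannot be assigned without strand information.

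Cx3cl1, fractalkine, the ligand of Cx3cr1 on monocytes and microglia, was at 45.1 in GL_M_65 and 27.0 in GL_M_30 and at 0 in the other 12 cells. With the mean transcript length as gene length, the values are about 379 and 334 reads. Endothelial markers at 10 or more numbered 2 of 11 in GL_M_65 and 9 in GL_M_30, and their part in the Cx3cl1 values was not tested. GL_M_65 was thus the cell with both anchored ligands, and GL_M_30 had Cx3cl1 with Cxcl12. The gene length behind the deposited RPKM matched the mean over annotated transcripts more often than the other lengths tried. For Cx3cl1 that mean is short, at 973 bases over 6 transcripts. It gave 378.6 reads in GL_M_65 and 334.2 in GL_M_30, which are not whole, so the length used for Cx3cl1 is uncertain. If the mean was used, its values per length of the longest transcript, 3315 bases, would be 3.41-fold lower. They would be 13.2 in GL_M_65 and 7.92 in GL_M_30. On the same scale Cxcl16 in GL_M_75 would be 176 and Cxcl12 in GL_M_30 8.64, so the order of the highest values was kept. Within cells the order would turn. Cxcl16 in GL_M_65 would be 19.99, above Cx3cl1, and Cxcl12 in GL_M_30 would be above Cx3cl1. Cxcl12, and Cx3cl1 in GL_M_30, would then no longer reach 10. Cx3cl1 (ENSMUSG00000031778) spans chr8:94772009-94782427 plus.

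The inflammatory members were at or next to 0. Cxcl1, which recruits neutrophils through Cxcr2, and Cxcl10, an interferon-induced ligand of Cxcr3, were at 0 in all 14 cells. Of the CC ligands, Ccl2, the main attractant of Ccr2-bearing monocytes, was at 0.0590 in GL_M_91, 1 read, and Ccl7, which shares that receptor, and Ccl5, which attracts T cells, were at 0 throughout. A count of 0 of 14 cells has an upper Clopper-Pearson bound of 23.2% and bears on detection in the library, not on expression in the cell. The 3 read limit was an RPKM of at most 0.322 for Cxcl1, 0.362 for Cxcl10, 0.476 for Ccl2, 0.758 for Ccl5 and 0.568 for Ccl7 in the shallowest cell. Cxcl1 lies at chr5:90891241-90893115 plus and Cxcl10 at chr5:92346638-92348889 minus, and Ccl2, Ccl7 and Ccl5 at chr11:82035571-82037453 plus, chr11:82045712-82047525 plus and chr11:83525778-83530518 minus.

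Among 29 further ligands 5 were detected, Cxcl9, Ccl27a, Ccl28, Ccl9 and Ccl25, and 18 were at 0 in every cell. The shares over all genes were 29.2% detected and 57.1% at 0 in every cell. Cxcl9, an interferon-gamma-induced ligand of Cxcr3 and neighbour of Cxcl10, was at 688 in GL_M_51 and at 0.181, 0.0723 and 0.280 in GL_M_55, GL_M_60 and GL_M_65, which share low values with it. Those traces were 0.0264%, 0.0105% and 0.0406% of the GL_M_51 level. Cxcl10 and Cxcl11 were at 0 in GL_M_51, and so were all 15 macrophage and dendritic cell markers. Ccl27a, a ligand of Ccr10 known from skin, was at 32.4 in GL_M_36 and at 0 elsewhere, and 45.0% of its 50-base stretches occur in other annotated transcripts, so its value is uncertain. Ccl28 peaked at 4.68 in GL_M_91, Ccl9 at 3.64 in GL_M_55 and Ccl25 at 3.04 in GL_M_85.

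Seen by cell, 8 of 14 cells had at least 1 of the 39 ligands at 10 or more, 5 of them exactly 1 ligand and 3 of them 2. Of the 6 ligands that reached 10, 3 did so in 1 cell. Over all genes 7864, or 22.3%, reached 10 in some cell, and 5012 besides Cxcl13 did so in at least 2. With 6 ligands, nothing particular to chemokines is read from this count. The leading ligand was Cxcl13 in GL_M_29, GL_M_36, GL_M_47 and GL_M_6, Cxcl9 in GL_M_51, Cxcl16 in GL_M_75 and Cx3cl1 in GL_M_65 and GL_M_30. Per longest transcript the order would turn in the last 2 cells, with Cxcl16 leading in GL_M_65 and Cxcl12 in GL_M_30. This holds only if the Cx3cl1 values were made with its mean transcript length, which is uncertain. In GL_M_29, GL_M_47, GL_M_51 and GL_M_75 the leading ligand made up 99.3% or more of the summed ligand RPKM, and in GL_M_36 97.3%. The sum ran from 0.122 in GL_M_60 to 3687 in GL_M_29. In GL_M_60 and GL_M_94 no ligand reached 1.

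**Figure D4:**
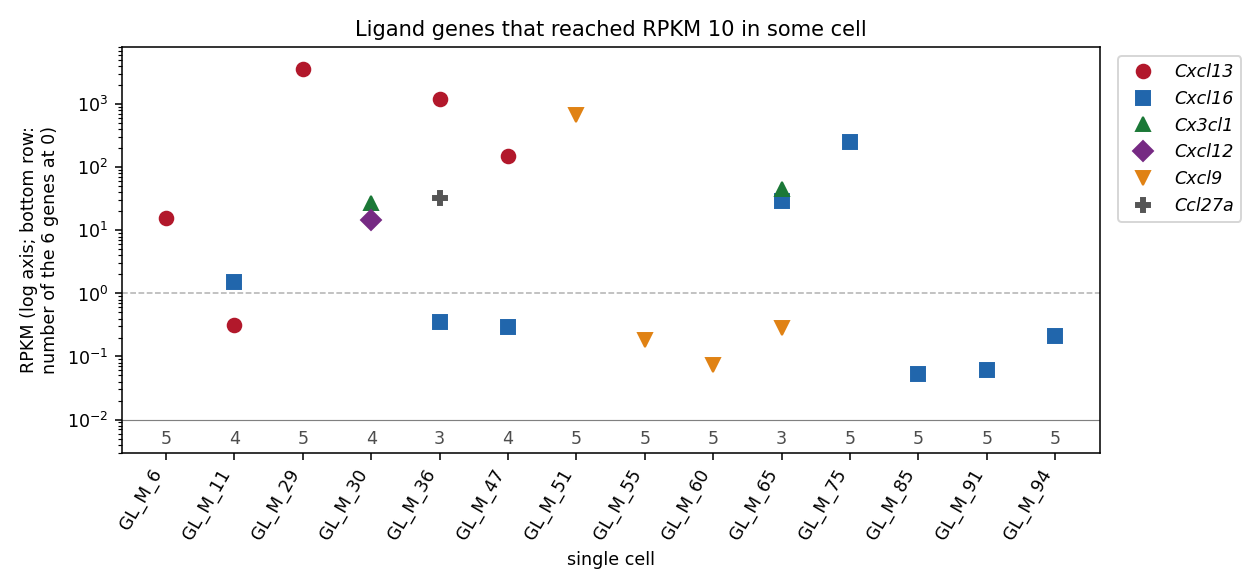
RPKM (log axis) of the 6 ligand genes that reached 10 in some of the 14 cells, with the number of these genes at 0 printed along the bottom and a dashed line at an RPKM of 1. Cxcl13 is high in GL_M_29, GL_M_36 and GL_M_47, Cxcl9 in GL_M_51 and Cxcl16 in GL_M_75.

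Of 18 chemokine receptors 4 were detected and 10 were at 0 in all cells, near the shares over all genes of 29.2% and 57.1%. Those at 0 included Cxcr5, Cxcr4, Cxcr3 and Cxcr6, the receptors of Cxcl13, Cxcl12, Cxcl9 and Cxcl10, and Cxcl16. Cxcr2 was detected in 6 cells with a median of 0.939 and a highest value of 17.8 in GL_M_36. Cx3cr1 was detected in 3 cells, with 5.27 in GL_M_47, and Xcr1 in 1, at 2.10 in GL_M_11. Of 5 atypical receptors, which bind chemokines without G protein signalling, 0 were detected. Ackr3, the scavenger of Cxcl12, was at 0.0453 in GL_M_30. The receptor list summed to an RPKM of 0.102 to 19.4 per cell.

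Of 7 proteases that process chemokines 5 were detected, beside 29.2% of all genes. Adam10, a sheddase of Cxcl16 and Cx3cl1, was at 10 or more in 5 cells, with 443 in GL_M_94, but at 0.346 in GL_M_75, at 0 in GL_M_65 and at 0.179 in GL_M_30. Adam17, the inducible sheddase, was detected in 7 cells and was at 6.85 in GL_M_75 and 3.09 in GL_M_65. Adam10 was thus low in the cells with the most Cxcl16 and Cx3cl1, but its median over the 14 cells was also low, at 0.223. Furin and Mmp2 were at 10 or more in 7 and 3 cells, with highest values of 89.8 and 194. Dpp4, which inactivates Cxcl12 and Cxcl10 by trimming, was at 0 in all 14 cells.

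Cxcl13 is known to be induced through the lymphotoxin beta receptor, tumour necrosis factor receptors and NF-kB. Of 20 genes of this pathway 14 were detected and 5 were at 0 in every cell, the ligands Lta, Ltb, Tnf and Tnfsf14 among them. Over all genes 29.2% were detected and 57.1% were at 0 in every cell. Ltbr was at 0 in 11 cells, including all 5 with Cxcl13, and reached 1.43 in GL_M_55. Tnfrsf1a was at 366 in GL_M_36 and 27.2 in GL_M_47 but at 0 in GL_M_29. Birc3, a ubiquitin ligase and NF-kB target, was at 1967 in GL_M_29, 72.0 in GL_M_36 and 241 in GL_M_47, and over the 14 cells had a median of 39.2 and was at 10 or more in 7. Ikbkb, the kinase of the inhibitory protein, was at 549 in GL_M_29, 0.554 in GL_M_36 and 143 in GL_M_47. Birc2 was at 0 in GL_M_29, 42.8 in GL_M_36 and 145 in GL_M_47. Birc3 was the single gene of the list at 10 or more in all 3 high cells.

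Of 10 NF-kB response genes 5 were detected, beside 29.2% of all genes. They were led by Nfkbia, the inhibitor itself, which reached 10 in 9 cells and peaked at 737, but was at 0 in GL_M_29. Vcam1 and Csf1 reached 10 in 3 cells each, with highest values of 237 and 510, and Nfkbib in 2. Il6, Il1b, Icam1, Ptgs2 and Lif were at 0 throughout, as were 57.1% of all genes. Of 12 interferon response genes 11 were detected, again beside 29.2% of all genes. Ifitm3 reached 10 in 13 cells and had a median of 1383, and Gbp3, a guanylate-binding protein, in 6, with 2518 in GL_M_60. In GL_M_51, the cell with Cxcl9, the interferon list had its lowest sum, 8.18, with Ifitm3 at 5.97. Irf9, a subunit of the interferon-activated transcription factor complex, reached 10 in 3 cells and was at 0.362 in GL_M_51.

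The genes most like Cxcl13 over the 14 cells were ranked by Pearson's r of log2(RPKM + 1) among 5012 genes at 10 or more in at least 2 cells. The first 10 were Csnk1g1 (r = 0.96), Ablim1 (0.96), Fam91a1 (0.96), Gm17571 (0.96), Map2k3 (0.95), Alcam (0.95), Mrps9 (0.95), G3bp2 (0.95), Anapc5 (0.94) and Rbck1 (0.93). The median r was 0.13, and 14 genes had an r of at least 0.9. The cells share an animal and the RPKM scaling, and 9 of the 14 points have Cxcl13 at 0, so no p is given. Ablim1, an actin-binding LIM protein, was at 710 in GL_M_29, 146 in GL_M_36, 15.7 in GL_M_47 and 11.2 in GL_M_6, and at most 6.03 elsewhere. Alcam, an adhesion molecule of leukocytes and endothelium, was at 856, 299, 17.4 and 45.9 in the same cells and at most 5.51 elsewhere. These 2 were the genes among the 10 that, like Cxcl13, were at 10 or more in 4 cells. Csnk1g1, a casein kinase, was lower, at 43.5, 17.1 and 13.1 in the 3 high cells. Gm17571 spans 90 exon bases with 46.3% of its stretches shared, and its value is uncertain. The ranking was not stable. It kept 1 of the 10 genes without GL_M_29, 3 without GL_M_36 and 4 without GL_M_47, and 0 with Spearman's rho in place of r. Of the 21 ligand, protease, NF-kB and interferon genes that entered the ranking, Gbp3 (r = 0.56, rank 339) and Birc3 (0.51, rank 472) were the closest. Cxcr2 reached 10 in 1 cell and was therefore not ranked. Cxcl16 and Cx3cl1 had r of -0.23 and -0.24. No other member was at 10 or more in 4 cells, so the ranking was made for Cxcl13 alone.

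**Figure D5:**
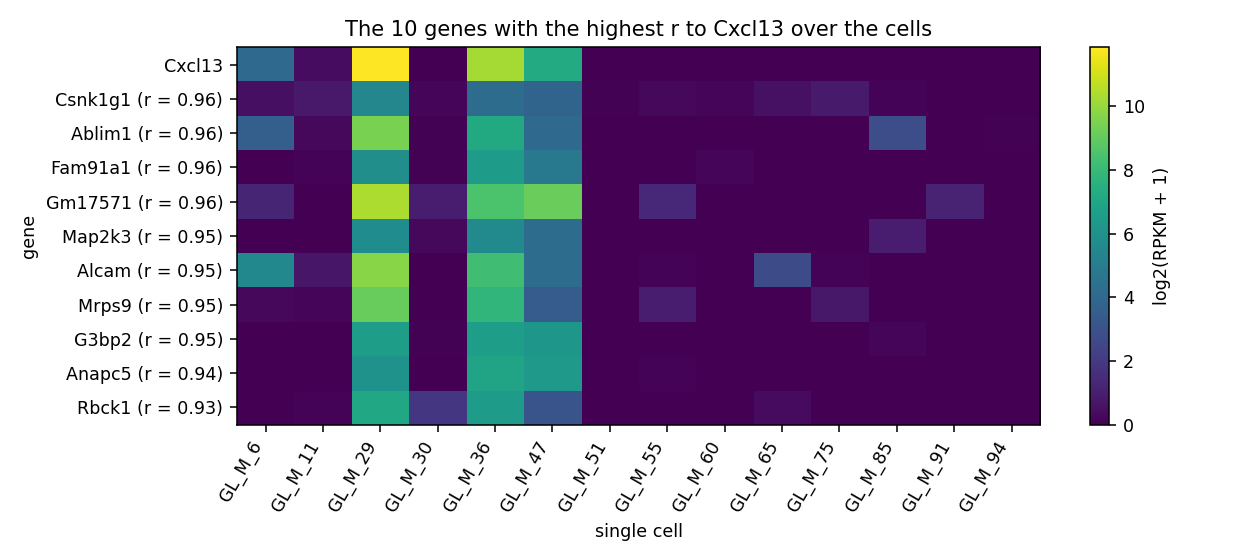
Level, as log2(RPKM + 1), of Cxcl13 and of the 10 genes with the highest r to it, in each of the 14 cells. All 10, chosen for following Cxcl13, are at an RPKM of 10 or more in GL_M_29 and GL_M_36. Ablim1 and Alcam are also at 10 or more in GL_M_6.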

How the data were processed

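The table holds RPKM values made by the authors, 1 column per cell. TopHat2 2.0.12, HTSeq 0.6.1 and the build mm10 are named, without roles, in the submitters' processing notes. For strandedness, cell filters and gene annotation, details were not given in the sources used here. Ensembl IDs were matched to GENCODE M21 symbols on GRCm38, the assembly of mm10 (34488 of 35271 matched).

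Read totals were recovered from genes with 1 annotated transcript, where 84.7% to 89.7% of values below 50 reads were within 0.02 of a whole read. At genes with over 2 transcripts, 52.9% of values below 8 reads were whole with the mean transcript length, against 11.5% with the longest and 4.15% with merged exons. A gene with short annotated fragments therefore has a higher RPKM. No values were filtered except for the likeness ranking, and the pseudocount was 1. On simulated data 14 of 14 totals and 10 of 10 planted like genes were recovered. The planted genes were copies of Cxcl13 with added noise, set among genes whose values were shuffled over the cells. Their recovery therefore does not bear on how stable the ranking of the real genes is.

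Members and lists were chosen with earlier results of these data known. Besides the members, the genes named were every detected ligand and receptor, the 4 highest of each other list and the 10 genes most like Cxcl13. Members of counted lists at 0 in every cell could be named too. Some genes that this rule names are counted in their lists but not reported here. Ltbr, Ackr3 and Cxcl11 were chosen after their values were seen. Cells are not replicates, so no p-value was computed. Python 3.11.15, pandas 2.3.3 and scipy 1.17.1 were used.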

Additional observations from a re-analysis of the deposited data

How the results depend on the processing

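Cxcl16 was detected in 3 cells at an RPKM of at least 1, but was above 0 in 8 and had at least 3 recovered reads in 6, and 2 cells reached 5. Cxcl13 counts ran from 3 to 5 cells over the limits tried. Intervals from 14 cells are wide, so a count that stays inside its interval shows little about stability. The alternatives chosen after seeing the data were a limit of 1% of the highest cell and the longest transcript as gene length. Other ligands detected numbered 5, but 11 counting any value above 0 and 2 at an RPKM of at least 10. Receptors and atypical receptors numbered 4, but 9 above 0 and 1 at 10 or more. Leaving out 1 cell at a time, 3 to 4 members, 4 to 5 other ligands and 3 to 4 receptors were detected. Of the 10 genes most like Cxcl13, 2 were shared when a gene had to be at 10 in 4 cells. Only these 2, Ablim1 and Alcam, pass that limit, so no more could be shared. With Spearman's rho 0 were shared, and 1 to 10 leaving out each cell. The cause of the loss with rho was not tested. The r of these 10 genes stayed positive wherever they passed the filter of a setting. They were chosen for a high r in these same cells, so nothing is read from that. Their Spearman's rho was 0.62 to 0.85. Depth limits the zeros to 3 reads, and 14 cells of 1 mouse limit every share.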
